A study of Mus musculus with 10 samples.

Results

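The livers of mice that carried an active nuclear form of human SREBP-2 (TgSREBP-2) were compared with those of wild type littermates on the same diet. The comparison took 4 of the 10 arrays of the study, all 8251 genes with a probe set of their own, and the deposited log2 signals. No measured value entered the choice of these arrays or genes, except that a gene with several probe sets was represented by the one with the highest mean over the 10 arrays. Both groups were male, 12 to 16 weeks old, and spent 2 weeks on food rich in protein and poor in carbohydrate (the high-protein diet), which served to raise the expression of the transgene. The promoter that drove the transgene is not given in the sources used here. Values of 3 other pools are set beside these where a result calls for them. TgSREBP-1a mice carried nuclear human SREBP-1a and had the age and diet of the TgSREBP-2 mice. Mice without Scap in liver (Scap-/-;MX1-Cre) and their own wild type controls were 10 to 12 weeks old, were fed Teklad chow, and had 4 injections of polyinosinic-polycytidylic acid, which induces the Cre recombinase, 14 days before the liver was taken. The title of the study gives its aim as finding direct targets of the SREBPs from transgenic and knockout mice together.

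SREBPs are transcription factors made as membrane proteins of the endoplasmic reticulum. When sterols are scarce the escort protein Scap carries them to the Golgi, where proteases release the part that enters the nucleus. SREBP-2 is known mainly for the genes of cholesterol synthesis and uptake, and SREBP-1c for those of fatty acid synthesis. A transgene that encodes only the nuclear part needs neither Scap nor the proteases.

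Each group was 1 pool of RNA from 5 mice, hybridised to 2 arrays. The tests therefore compare pools, the spread is that between hybridisations, and no error between mice can be given. A gene was called when its adjusted p was under 0.05 and its difference at least 1.5-fold, and each value after ± is the moderated standard error of a log2 difference with n = 2 arrays per group. Duplicate arrays correlated over genes at 0.9942 in TgSREBP-2 and 0.9924 in wild type, with 55 and 101 genes at least 1.5-fold apart. The labelled tissue was checked against its markers. The 11 measured hepatocyte genes summed to a log2 level of 16.16 to 16.22 on the 4 arrays, 0 were called and 1 had an unadjusted p under 0.05. In whole liver, fewer cells of a type and less RNA per cell cannot be told apart. The human transgene, Srebf2 and Scap were not analysed here, so no gene checked the labels of these arrays.

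In the TgSREBP-2 pool 180 of 8251 genes were called higher (2.18%) and 32 lower (0.388%). Most increases were modest. They were 1.5 to 2-fold in 117 genes and 2 to 4-fold in 46, and reached 4-fold in 17, of which 11 were genes of cholesterol synthesis. Of the 10 largest increases 9 were genes of cholesterol synthesis and the other was Scd2, a fatty acid desaturase. Over all genes the median log2 difference was -0.02, with quartiles of -0.11 and 0.1. In all 212 called genes both TgSREBP-2 arrays lay on one side of both wild type arrays, which held for 20.5% of all genes on the higher side and 23.3% on the lower. The count depended on single arrays: without array 1 of TgSREBP-2 the higher genes numbered 110, and without array 2 the lower genes numbered 21. Under every one of the 4 omissions 106 of the 180 and 18 of the 32 kept their call. Same-numbered arrays of the 2 pools deviated together (correlation 0.61), so an omission here and below also leaves the array of the same number without its partner. How far this accounts for lost calls was not tested. A fit with the replicate number as a block kept all 212 calls.

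**Figure D1:**
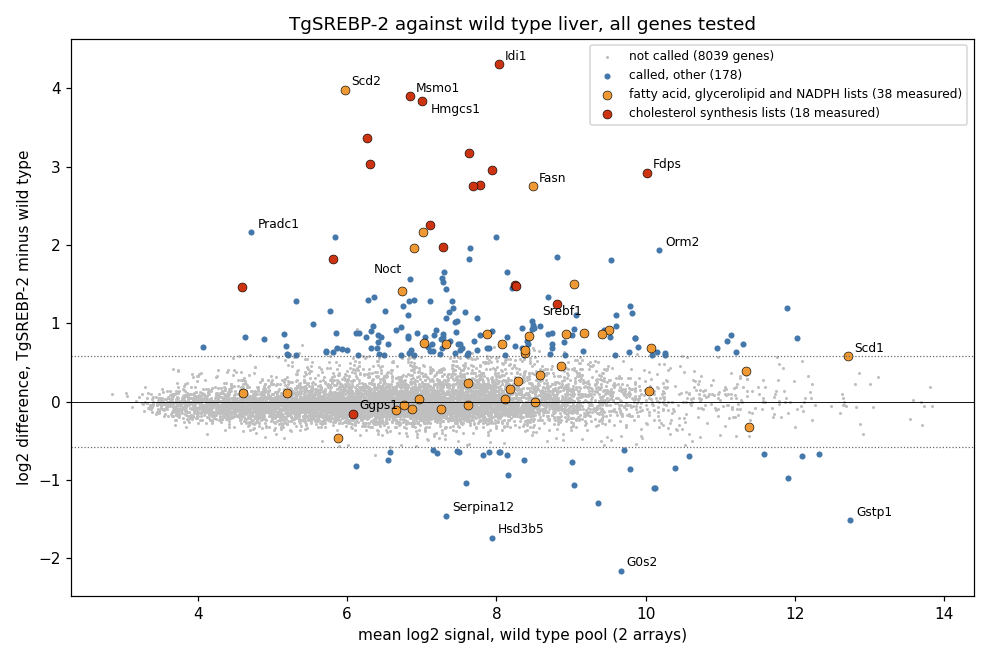
Log2 difference between TgSREBP-2 and wild type against the mean log2 signal of the wild type pool, 1 point per gene, with dotted lines at 1.5-fold. The cholesterol synthesis genes (red) lie between 1.25 and 4.31 except Ggps1 at -0.16, while the list genes of fatty acids, glycerolipids and NADPH (orange) are spread from below 0 to Scd2 at 3.98.

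Genes of cholesterol synthesis rose along the whole pathway. Of 18 measured genes 17 were called higher, with a median log2 difference of 2.76, and these 17 kept their call in each alternative they entered. Lbr, too dim for the test without the dimmest 25% of genes, entered 1 fewer than the rest. In the part from acetyl-CoA to squalene 6 of 7 rose. Idi1, which isomerises isopentenyl diphosphate, showed the largest increase of all genes: its log2 signal was 7.96 and 8.10 on the wild type arrays and 12.40 and 12.29 on the TgSREBP-2 arrays, a difference of 4.31 ± 0.09 or 19.9-fold (adjusted p = 1.7e-09). Hmgcs1, which makes HMG-CoA, read 7.26 and 6.74 in wild type and 10.93 and 10.75 in TgSREBP-2, which is 14.3-fold. Fdft1, the squalene synthase, went from 7.85 and 7.41 to 10.91 and 10.72, or 9.09-fold. The groups were far apart in each of these 3 genes compared with the spread of their duplicates. Fdps, which makes farnesyl diphosphate, rose 7.58-fold from an already high 9.99 and 10.03. A dimmer probe set of Fdps gave 2.69, while its dimmest pair gave 0.58 and 0.05. Mevalonate diphosphate decarboxylase, Mvd, rose 3.92-fold and mevalonate kinase, Mvk, 2.81-fold. Ggps1 takes farnesyl diphosphate away from sterols towards geranylgeranyl diphosphate. It read 6.10 and 6.06 in wild type and 5.90 and 5.93 in TgSREBP-2 (adjusted p = 0.34).

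From squalene to cholesterol all 11 measured genes rose, with a median of 2.75 and a range of 1.25 to 3.9. Msmo1, the C4-methylsterol oxidase, read 7.06 and 6.62 in wild type and 10.96 and 10.51 in TgSREBP-2, a 14.9-fold increase. Cyp51, the lanosterol demethylase, rose 10.3-fold, from 6.52 and 6.02 to 9.73 and 9.55. In both genes the duplicates lay much closer to each other than to the other pool. Dhcr7, which reduces the last double bond of one branch, rose 8.14-fold, Nsdhl 7.8-fold, the squalene epoxidase Sqle 6.81-fold and the lanosterol synthase Lss 6.74-fold. Sc5d rose 4.77-fold with the widest error of the group (2.26 ± 0.33). The smallest increases were those of the sterol reductases Tm7sf2 and Lbr and the isomerase Ebp, at 2.39, 2.75 and 2.8-fold, and Hsd17b7 lay between at 3.53-fold. Other probe sets of Mvk, Nsdhl, Sc5d and Tm7sf2 were also called higher, at 2.23 for Mvk, 3.68 and 1.43 for Nsdhl, 2.31 for Sc5d and 0.97 for Tm7sf2.

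**Figure D2:**
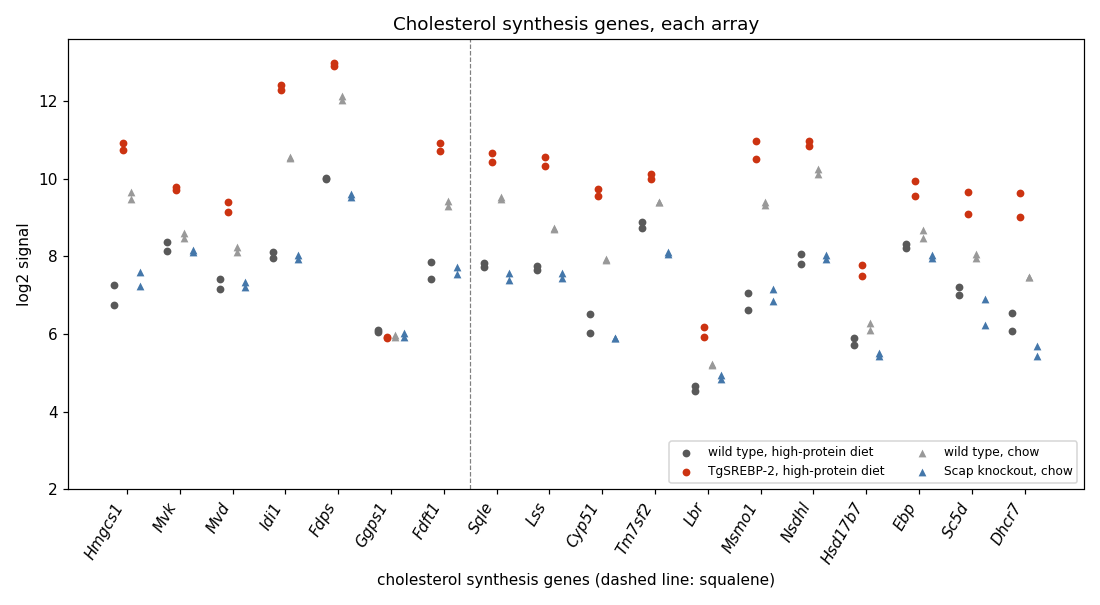
Log2 signal of each array for the 18 measured cholesterol synthesis genes in pathway order (the dashed line marks squalene), for wild type and TgSREBP-2 on the high-protein diet (circles) and wild type and Scap knockout on chow (triangles). Both TgSREBP-2 arrays lie above both wild type arrays in every gene but Ggps1.

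The promoters of these genes were read for 4 motifs, on both strands, over the 250 bases before the RefSeq start (GRCm38.p6). The motifs were TCACNCCAC, from the classical sterol regulatory element, the CCAAT box that NF-Y binds, the Sp1 box GGGCGG and the E-box CACGTG. The windows printed here are those of 3 strongly raised cholesterol genes, of Fasn from the fatty acid branch, and of Aldoc as a raised gene outside lipid synthesis with a TCACNCCAC match. Capitals mark TCACNCCAC and CCAAT matches, the latter also as ATTGG where the box lies on the other strand. The windows are chr13:119690101-119690350, plus strand, for Hmgcs1, chr13:8885356-8885605, plus strand, for Idi1, chr5:4104698-4104947, minus strand, for Cyp51, chr11:120824548-120824797, minus strand, for Fasn and chr11:78322823-78323072, plus strand, for Aldoc, each printed 5′ to 3′ on the strand of its gene.
Hmgcs1: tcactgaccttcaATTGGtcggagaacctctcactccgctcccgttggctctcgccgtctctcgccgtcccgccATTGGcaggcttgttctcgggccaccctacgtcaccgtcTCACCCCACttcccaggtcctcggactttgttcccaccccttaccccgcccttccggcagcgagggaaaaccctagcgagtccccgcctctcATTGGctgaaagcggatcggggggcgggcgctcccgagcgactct
Idi1: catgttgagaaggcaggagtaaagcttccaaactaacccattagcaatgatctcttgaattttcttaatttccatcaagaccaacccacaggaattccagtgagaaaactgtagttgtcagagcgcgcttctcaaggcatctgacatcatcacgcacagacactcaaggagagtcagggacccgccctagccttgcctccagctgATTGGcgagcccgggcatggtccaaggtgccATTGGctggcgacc
Cyp51: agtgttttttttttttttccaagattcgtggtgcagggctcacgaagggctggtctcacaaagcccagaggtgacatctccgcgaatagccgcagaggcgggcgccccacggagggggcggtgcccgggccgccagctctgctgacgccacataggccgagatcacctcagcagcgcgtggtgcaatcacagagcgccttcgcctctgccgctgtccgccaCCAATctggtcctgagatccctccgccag
Fasn: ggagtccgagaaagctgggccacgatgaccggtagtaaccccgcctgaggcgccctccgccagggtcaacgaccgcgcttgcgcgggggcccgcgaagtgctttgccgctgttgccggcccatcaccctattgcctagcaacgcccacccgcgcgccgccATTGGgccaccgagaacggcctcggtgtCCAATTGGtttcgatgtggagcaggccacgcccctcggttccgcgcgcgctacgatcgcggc
Aldoc: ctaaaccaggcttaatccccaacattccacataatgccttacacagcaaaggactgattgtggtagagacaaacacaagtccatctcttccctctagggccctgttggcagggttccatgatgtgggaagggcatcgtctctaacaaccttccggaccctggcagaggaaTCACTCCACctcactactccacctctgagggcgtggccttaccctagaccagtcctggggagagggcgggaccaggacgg

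Of the 18 cholesterol genes 15 had a window, and 14 of the 15 (93.3%) held a CCAAT box against 35.9% of the 6576 genes with a window. The same share, 14 of 15, held GGGCGG against 54.8% of all. TCACNCCAC stood in 1 of the 15, Hmgcs1, against 1.11% of all windows, and CACGTG in 2 against 8.42%. In Hmgcs1 the TCACNCCAC match began 137 bases before the start and lay among 3 CCAAT boxes. Among the 149 called-higher genes with a window 6 (4.03%) held TCACNCCAC, namely Hmgcs1, Aldoc, Ehhadh, Saa3, Sycn and Tom1l1, and 66 (44.3%) held CCAAT. Outside cholesterol synthesis 53 of 135 called-higher genes (39.3%) held CCAAT. Of the 24 called-lower genes with a window 0 held TCACNCCAC and 8 held CCAAT. These are counts of letters in short windows, with no test, and no binding was measured.

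In the list of the SREBP pathway itself, sterol uptake and esterification, 2 of 11 genes were called higher. Srebf1, the mouse gene of SREBP-1, read 8.68 and 8.70 in wild type and 10.01 and 10.04 in TgSREBP-2, a 2.53-fold increase (1.34 ± 0.07). Whether its probe set also reads the human transgene was not tested. Npc2, which carries cholesterol out of lysosomes, rose 1.9-fold. The list's median was -0.04, close to that of all genes. Insig1, which holds Scap in the endoplasmic reticulum, differed by -0.19 ± 0.12, but its probe set read only 4.37 to 4.71, within the dimmest 25% of genes (below 5.58). Vldlr, a lipoprotein receptor, was as dim (-0.15). Lpl, the lipoprotein lipase, differed by 0.17, the scavenger receptor Scarb1 by -0.1 and the lysosomal transporter Npc1 by -0.2.

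Fatty acid synthesis rose in part. Of 14 measured genes 6 were called higher and 0 lower, with a median of 0.52. Scd2, a stearoyl-CoA desaturase, read 5.95 and 6.0 in wild type and 9.92 and 9.99 in TgSREBP-2, an increase of 3.98 ± 0.09 or 15.8-fold. A somewhat dimmer probe set of Scd2 gave a smaller increase, 2.11 ± 0.17, and was also called higher. Fasn, the fatty acid synthase, read 8.65 and 8.32 against 11.28 and 11.19, or 6.72-fold. The elongase Elovl6 rose 4.46-fold, from 6.98 and 7.06 to 9.27 and 9.08. In these 3 genes the pools were separated by many times the spread of their arrays. Acly, which makes cytosolic acetyl-CoA from citrate, rose 2.83-fold, the citrate carrier Slc25a1 1.89-fold and the desaturase Fads1 1.82-fold. Scd1, the main desaturase of liver, stood just under the fold required: it read 12.81 and 12.61 in wild type and 13.31 and 13.26 in TgSREBP-2 (0.58 ± 0.09, adjusted p = 0.0051), and it passed without array 1 of wild type (0.68) or array 2 of TgSREBP-2 (0.6).

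The other members stayed below 1.5-fold. Thrsp, which supports lipogenesis, differed by 0.46 ± 0.09, Elovl5 by 0.39, Elovl2 by 0.34, Acss1 by 0.11, Elovl1 by 0.03 and Elovl3 by -0.46. For Mid1ip1, a partner of Thrsp, the probe sets disagreed, at 0.24 for the brighter one used here and 1.51, called higher, for the other. The order of these enzymes differed from that in TgSREBP-1a. By direct contrast of the transgenic pools, 8 of the 14 genes were lower in TgSREBP-2 than in TgSREBP-1a and 0 higher, whereas 10 of the 18 cholesterol genes were higher and 0 lower. Nsdhl is counted among these 10 but lost its call without array 1 of TgSREBP-2 (0.52) or array 2 of TgSREBP-1a (0.53). Over all genes 2.95% were called higher and 2.24% lower in that contrast. The gap was widest for Acss1 (-2.97), Thrsp (-2.73) and Elovl6 (-1.66) on the fatty acid side and for Msmo1 (2.1), Idi1 (1.66), Mvk (1.35) and Hsd17b7 (1.22) on the cholesterol side. Thrsp, for example, read 9.33 and 9.32 in TgSREBP-2 and 12.12 and 12.00 in TgSREBP-1a. Against wild type, 5 of 7 genes up to squalene and 11 of 11 beyond it were called higher in TgSREBP-1a as well. The medians of these lists were 2.23 and 1.79, and 4.78% of all genes were called higher there. Hsd17b7 (0.44) and Lbr (0.46) lost that call without array 1 of TgSREBP-1a. Mvk was not called there. It read 9.79 and 9.71 in TgSREBP-2, 8.32 and 8.47 in TgSREBP-1a and 8.15 and 8.36 in wild type. Of the 8 cholesterol genes not called between the transgenic pools, Fdps (-0.19) and Ggps1 (-0.04) were the ones that differed downwards.

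Of 9 genes that supply NADPH for these pathways 5 were called higher and 0 lower, with a median of 0.66 and a range that began at -0.32. Me1, the malic enzyme, read 7.01 and 6.79 in wild type and 8.99 and 8.73 in TgSREBP-2, or 3.9-fold. The pentose phosphate enzymes Pgd, Taldo1 and Tkt rose 1.68, 1.66 and 1.58-fold and the isocitrate dehydrogenase Idh1 1.79-fold. Without array 2 of wild type Tkt (0.52) and Idh1 (0.71, adjusted p = 0.114) lost their calls, and Idh1 also without array 1 of TgSREBP-2 (0.72, adjusted p = 0.172). The count was then 3 and 4. A dimmer probe set of Pgd read -0.23, and in the mean of both probe sets Pgd lost its call (0.26).

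Of 15 genes of glycerolipid and phospholipid synthesis 6 were called higher and 0 lower, with a median of 0.26. Gpam, which starts glycerolipid synthesis, read 9.24 and 9.10 in wild type and 10.08 and 10.01 in TgSREBP-2, or 1.84-fold. The lysophospholipid acyltransferase Lpcat3 rose 1.81-fold and Pcyt2, of phosphatidylethanolamine synthesis, 1.6-fold, though not by enough for a call after quantile normalization (0.49). Acsl4 and Acsl5, which activate fatty acids, rose 2.65 and 1.82-fold and the phosphatidate phosphatase Lpin2 1.53-fold. This count fell to 3 without array 1 of TgSREBP-2, where Acsl4 (1.21, adjusted p = 0.151), Acsl5 (0.74) and Lpin2 (0.47) were lost, and to 4 without array 2 of wild type, where Acsl4 (1.19) and Lpin2 (0.58) were. Lpin2 was also lost without array 1 of wild type (0.65, adjusted p = 0.0774). Dgat1, which completes triglycerides, differed by -0.1.

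Fat storage and lipoprotein genes showed single large changes in lists that otherwise moved little. G0s2, an inhibitor of the triglyceride lipase, fell more than any other gene with a probe set of its own. It read 9.67 and 9.66 in wild type and 7.47 and 7.53 in TgSREBP-2, or 4.47-fold lower (-2.16 ± 0.12). The other 11 genes of its list, lipid droplets and lipolysis, lay between -0.26 and 0.14. Of 17 lipoprotein genes 2 were called higher, both 3.5-fold or more. Pltp, the phospholipid transfer protein, read 7.75 and 7.53 in wild type and 9.76 and 9.43 in TgSREBP-2 (3.9-fold), and apolipoprotein Apoa4 read 9.58 and 9.48 against 11.43 and 11.25 (3.5-fold). Neither pair of duplicates came near the other. Abca1, the cholesterol exporter, differed by 0.18 and Apoe by 0.19. Of 14 bile acid genes 2 rose, the exporters Abcc3 (1.91-fold) and Abcc2 (1.75-fold), while Cyp7a1, the rate-limiting enzyme of bile acid synthesis, differed by 0.11.

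**Figure D3:**
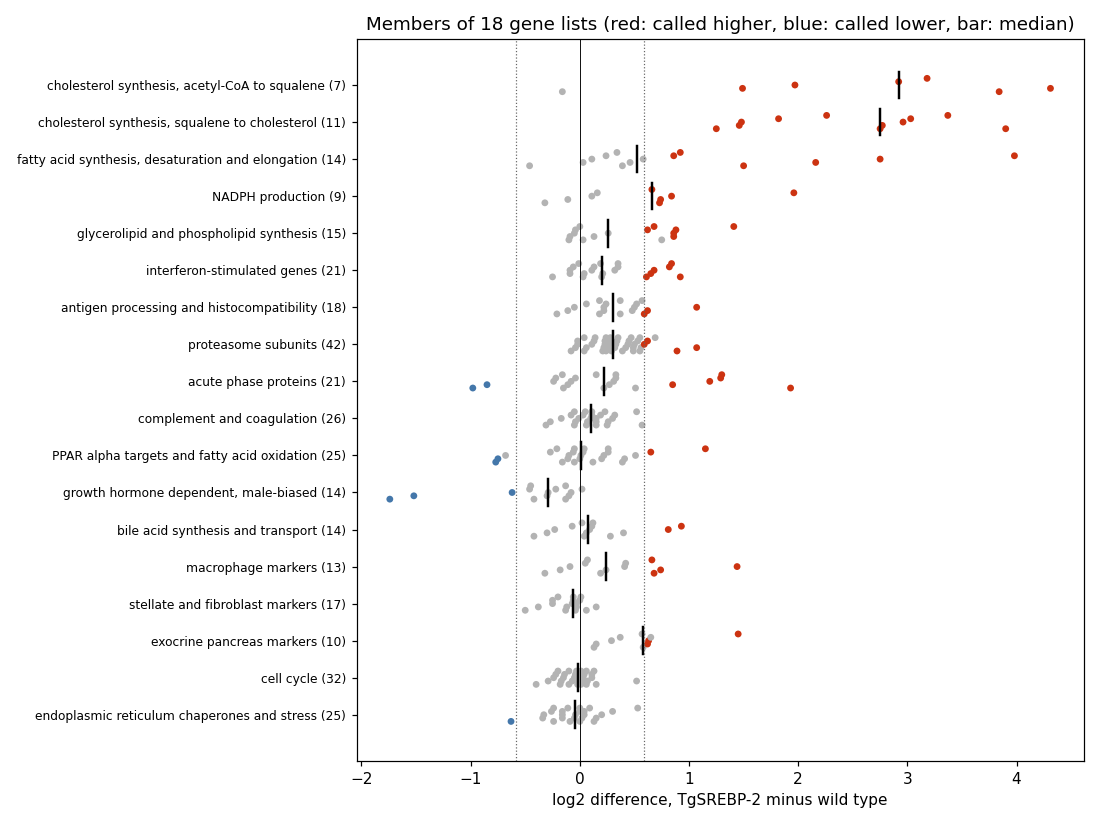
Log2 difference between TgSREBP-2 and wild type for each measured member of 18 gene lists (1 point per gene, number of members in brackets, black bar at the list's median, dotted lines at 1.5-fold). Both cholesterol lists sit apart with medians of 2.92 and 2.75, and the medians of the other 16 lists lie between -0.3 and 0.66.

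A few proteasome and interferon genes were called higher, by at most 2.1-fold. Of 42 proteasome genes 38 differed upwards, where 43.0% of all genes did, 4 were called higher and 0 lower, and the median was 0.3. The 4 were Psmb8 (2.1-fold), Psmb5 (1.85-fold), Psmb9 (1.53-fold) and Psme1 (1.51-fold), of which Psmb8, Psmb9 and Psme1 are induced by interferon. A dimmer probe set of Psmb5 gave 0.08 and one of Psme1 -0.14. In the mean of all probe sets of a gene Psmb5 and Psme1 lost their calls. Psmb8, a subunit of the immunoproteasome, read 7.42 and 7.24 in wild type and 8.56 and 8.24 in TgSREBP-2. With the interferon-induced subunits left out, 34 of 38 still differed upwards and 1 was called, with a median of 0.29. The proteasome list summed to a log2 level of 13.66 and 13.53 in wild type, below the range of 13.85 to 14.15 on every other array. Against the same wild type pool, TgSREBP-1a had 10 of the 42 called higher. Whether the low sum is a trait of that wild type pool was not tested. The count of calls in TgSREBP-2 rested on single arrays. With 32 added to the linear signal it was 1. It was 11 without array 2 of TgSREBP-2 and 1 without array 1, where Psmb5 (0.62, adjusted p = 0.264), Psmb9 (0.49) and Psme1 (0.53) lost their calls. Without array 2 of wild type those 3 were lost as well, at 0.76, 0.52 and 0.57, and Psmb5 also without array 1 of wild type (1.02, adjusted p = 0.0674).

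Of 21 interferon-stimulated genes 6 were called higher and 0 lower, with a median of 0.2. Ifi27 read 9.38 and 9.50 in wild type and 10.40 and 10.32 in TgSREBP-2 (1.89-fold), and the GTPase Igtp read 6.79 and 6.85 against 7.88 and 7.45 (1.79-fold). Ifit1, which binds viral RNA, rose 1.76-fold from a dim 4.55 and 4.71, Usp18, which removes Isg15 from proteins, 1.61-fold, the transcription factor Irf7 1.57-fold and the ubiquitin-like Isg15 1.53-fold. With 32 added to the linear signal, which damps dim genes, Ifit1 (0.41), Usp18 (0.48), Irf7 (0.55) and Isg15 (0.52) fell short of the fold required, and 2 of the 6 calls were left. Isg15 also lost its call without array 2 of wild type (0.58) or array 1 of TgSREBP-2 (0.53), and Irf7 in the mean of its probe sets (0.35), the dimmer of which read 0.05. Mx1 and Rsad2, both induced by type I interferon, differed by -0.01 and 0.03. Of 18 antigen processing genes 3 rose, the Psmb8, Psmb9 and Psme1 named above, and 15 differed upwards. That count was 1 without array 1 of TgSREBP-2, where Psmb9 (0.49) and Psme1 (0.53) were lost. It was 2 without array 2 of wild type, where Psmb9 (0.52) and Psme1 (0.57) were lost and Tap1 was gained, and 5 without array 1 of wild type. H2-Q4, a class I gene whose close copies share probes, rose 1.81-fold.

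Acute phase proteins, which liver secretes in inflammation, moved both ways: 5 of 21 were called higher and 2 lower, with a median of 0.22. Orm2, an orosomucoid, read 10.23 and 10.13 in wild type and 12.17 and 12.05 in TgSREBP-2, or 3.81-fold. Saa3 rose 2.46-fold, Lcn2 2.45-fold, Saa2 2.28-fold and Orm3 1.8-fold. A dimmer probe set of Lcn2 read -0.07. The serum amyloid and orosomucoid genes are close copies, so their values may not be separate. The protease inhibitor Serpina3n fell 1.97-fold, from 11.92 and 11.89 to 10.96 and 10.89. Apcs, the serum amyloid P component, fell 1.8-fold but lost its call without array 1 of wild type (-0.7, adjusted p = 0.118) or array 2 of TgSREBP-2 (-0.69, adjusted p = 0.0986). Of 26 complement and coagulation genes 0 were called and 7 had an unadjusted p under 0.05, with Mbl2 highest at 0.57 ± 0.11. Without array 2 of TgSREBP-2 Mbl2 (0.67) and Masp1 (0.77) were called, and without array 1 of wild type Mbl2 (0.72).

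Hamp, which encodes the iron hormone hepcidin, read 10.11 and 10.13 in wild type and 9.04 and 9.0 in TgSREBP-2, a 2.14-fold decrease. In the iron and haem list it was the 1 gene called lower of 14, and Lcn2, an iron carrier-binding protein, the 1 called higher. Of 14 genes kept high in male liver by growth hormone 3 were called lower and 0 higher. In all, 13 of the 14 differed downwards, and the median was -0.3. The list fell further in TgSREBP-1a, where 11 of the 14 were called lower (2.59% of all genes) and the median was -1.04. Hsd3b5, a male-specific steroid dehydrogenase, read 8.18 and 7.70 in wild type and 6.34 and 6.06 in TgSREBP-2, or 3.35-fold lower. Gstp1, a glutathione transferase with a near-identical copy, fell 2.88-fold, from 12.80 and 12.67 to 11.28 and 11.15. Both were well clear of the duplicates' spread. Socs2, a feedback inhibitor of growth hormone, fell 1.54-fold and lost its call without array 1 of wild type (-0.52), array 1 of TgSREBP-2 (-0.64, adjusted p = 0.101) or array 2 of TgSREBP-2 (-0.6, adjusted p = 0.0769). Of 6 female-biased genes 0 were called and 3 had an unadjusted p under 0.05.

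Among 25 genes of fatty acid oxidation and PPAR alpha 2 rose and 2 fell. Ehhadh, the peroxisomal bifunctional enzyme, read 7.79 and 7.36 in wild type and 8.87 and 8.58 in TgSREBP-2 (2.22-fold). Acot1, an acyl-CoA thioesterase, read 8.33 and 8.42 against 7.60 and 7.66 (1.68-fold lower). Acaa1a, which has a close copy, rose 1.57-fold but lost its call without array 2 of wild type (0.55) or array 1 of TgSREBP-2 (0.51). The fatty acid hydroxylase Cyp4a10 fell 1.7-fold but lost its call without array 1 of wild type (-0.67), array 2 of wild type (-0.86, adjusted p = 0.052) or array 2 of TgSREBP-2 (-0.6). Ppara itself differed by -0.11 and Cpt1a by 0. Slc2a2, the main glucose transporter of hepatocytes, fell 2.06-fold, from 7.72 and 7.46 to 6.71 and 6.38. It and Tpi1 (1.63-fold higher, 0.56 without array 1 of TgSREBP-2) were the genes called among 13 of glycolysis and gluconeogenesis. Bhmt, which remethylates homocysteine, fell 1.62-fold as the 1 called of 21 amino acid genes, and lost its call without array 1 of wild type (-0.63) or array 2 of TgSREBP-2 (-0.6).

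Drug metabolism genes moved in both directions, 5 of 33 higher and 2 lower. Aldh1a7, an aldehyde dehydrogenase, read 8.16 and 8.13 in wild type and 9.91 and 9.71 in TgSREBP-2 (3.17-fold), its relative Aldh1a1 rose 1.71-fold (0.38 and not called in the mean of its probe sets) and Cyp1a2 fell 1.63-fold. The remaining 4 each depended on an array. Without array 2 of wild type the calls of Cyp3a11 (0.72), Cyp3a25 (0.78) and Adh1 (0.54) were lost, and without array 1 of TgSREBP-2 those of Cyp3a11 (0.59, adjusted p = 0.0597), Cyp3a25 (0.83) and Cyp2c39 (-0.56). The count of higher genes was 2 in the first case and 3 in the second. With all arrays the differences were 0.81, 1.03, 0.68 and -0.65 in the order Cyp3a11, Cyp3a25, Adh1 and Cyp2c39. In the glutathione list of 24, Mgst3 rose 1.51-fold, which was lost without array 2 of wild type (0.54) or array 1 of TgSREBP-2 (0.53), and Gstp1 fell. The lower genes of that list numbered 2 without array 1 of TgSREBP-2 or either array of wild type, and the higher ones 2 without array 1 of wild type. Of 10 pericentral hepatocyte genes Cyp1a2 alone was called, and of 8 periportal genes 0, with 0 at an unadjusted p under 0.05.

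Among markers of other cell types, calls were made for macrophages, exocrine pancreas and red cells. Of 13 macrophage markers 4 were called higher, and their summed log2 level was 11.89 and 11.85 in wild type and 12.33 and 12.23 in TgSREBP-2. Cd5l, which macrophages secrete, read 7.43 and 7.23 against 8.95 and 8.60 (2.71-fold). Mpeg1 rose 1.67-fold, the complement gene C1qb 1.6-fold and lysozyme Lyz2 1.58-fold. Of these only Cd5l was called without array 1 of TgSREBP-2, where C1qb stood at 0.57, Lyz2 at 0.54 and Mpeg1 at 0.68 (adjusted p = 0.0504). Without array 2 of wild type Lyz2 stood at 0.58 (adjusted p = 0.0996), and with the mean of all probe sets of a gene Cd5l was the 1 called. The Kupffer cell marker Clec4f differed by 0.19, Adgre1 by -0.09, Csf1r by 0.07 and Cd68 by 0.24. The part of these cells in the interferon and antigen processing values was not tested. Of all pools, the wild type pool on the high-protein diet had the lowest macrophage sum. The TgSREBP-1a arrays reached sums of 12.58 and 12.45, with 6 markers called higher, and the Scap set spanned 12.28 to 12.4. Whether the low sum is a trait of that wild type pool was not tested.

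All 10 measured markers of exocrine pancreas differed upwards, with a median of 0.57, and 3 were called. Their summed log2 level was 14.13 and 14.17 in wild type, 14.6 and 14.58 in TgSREBP-2, and 10.82 and 10.81 in TgSREBP-1a. The trypsinogen Prss2 read 11.22 and 11.19 in wild type and 11.86 and 11.81 in TgSREBP-2 (1.55-fold, but 0.55 and not called after quantile normalization), Reg1 rose 2.72-fold and Rnase1 1.53-fold. Rnase1 was lost without array 2 of wild type (0.53) or array 1 of TgSREBP-2 (0.41). The count was 5 without array 1 of wild type, 6 without array 2 of TgSREBP-2 and 2 without array 1. Klk1 and Sycn, which the acinar pancreas also secretes, rose 1.61 and 1.63-fold. Klk1 lost its call without array 1 (0.72, adjusted p = 0.0602) or array 2 (0.66) of wild type or array 1 of TgSREBP-2 (0.58). Whether pancreatic tissue was carried into some pools was not tested.

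Of the 3 measured red cell markers 1, the globin Hba-a1, was called higher (1.66-fold). Their summed log2 level was 11.55 and 11.43 in wild type and 12.18 and 12.16 in TgSREBP-2. Hbb-b2, a globin outside the list and named after its values were seen, read 8.11 and 7.76 in wild type and 8.95 and 8.73 in TgSREBP-2 (1.87-fold). It lost its call without array 2 of wild type or array 1 of TgSREBP-2. For the remaining types 0 were called, and the counts at an unadjusted p under 0.05 were 1 of 10 for neutrophils, 1 of 15 for lymphocytes, 1 of 11 for endothelium, 3 of 17 for stellate cells and fibroblasts, 1 of 5 for cholangiocytes and 2 of 5 for adipocytes. Acta2, a stellate cell marker, was called lower without array 1 of wild type (-0.72).

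Several long lists held no calls. Of 32 cell cycle genes, 37 ribosomal protein genes and 73 respiratory chain genes 0 were called, with 3, 0 and 8 at an unadjusted p under 0.05. Pcna, a replication factor, was called without array 2 of TgSREBP-2 (0.62). The same held for 11 cytosolic heat shock genes, of which 2 had an unadjusted p under 0.05 and Hspa4 was called without array 2 of wild type (-0.6). Of 25 chaperone and stress genes of the endoplasmic reticulum Creld2 fell 1.55-fold (-0.58 without array 2 of TgSREBP-2). In the clock list, by contrast, Bhlhe40, Nr1d2 and Dbp of 15 rose 1.62, 1.54 and 1.53-fold, and 0 of the 3 were called with 32 added to the linear signal or without array 1 of TgSREBP-2, in the latter at 0.57, 0.41 and 0.67. Nr1d2 was also lost without array 1 (0.66) or array 2 (0.59) of wild type, and Dbp without array 1 of wild type (0.44) or array 2 of TgSREBP-2 (0.56). Of 27 liver transcription factors Cebpd rose 1.8-fold and Foxa3 fell 1.58-fold. Cebpd was lost without array 2 of wild type (0.69) or array 1 of TgSREBP-2 (0.73), and Foxa3 without array 1 (-0.57) or array 2 (-0.75) of wild type or array 2 of TgSREBP-2 (-0.45). Egr1, the 1 immediate early gene called of 18, fell 1.57-fold and was lost without array 1 of wild type (-0.5) or array 2 of TgSREBP-2 (-0.56).

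Of 151 solute carriers 4 rose and 1, Slc2a2, fell, shares close to those over all genes. Apart from Slc25a1 above, the amino acid transporter subunit Slc3a1 rose 1.61-fold, the phosphate carrier Slc20a1 1.69-fold and the copper carrier Slc31a1 1.51-fold. Slc20a1 and Slc31a1 were lost without array 1 of wild type (0.77 and 0.67), array 2 of wild type (0.75 and 0.52) or array 1 of TgSREBP-2 (0.66 and 0.5). Of 21 cytoskeleton genes the keratin Krt4 was called, 2.47-fold lower, from 9.55 and 9.18 to 8.03 and 8.10. A dimmer probe set of Krt4 gave -0.43 and was not called.

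Of the 180 higher genes 144 belonged to none of the lipid synthesis lists, and some of these were among the 20 largest increases. Pradc1, a gene for a secreted protease-associated protein, read 4.78 and 4.65 in wild type and 7.04 and 6.71 in TgSREBP-2, or 4.46-fold. Pdzk1ip1, a small membrane protein, read 7.93 and 8.07 against 10.13 and 10.06 (4.27-fold), and Nfe2, a transcription factor known from blood cells, read 5.83 and 5.84 against 8.05 and 7.83 (4.3-fold). Tmem97, a sterol-binding membrane protein, rose 3.6-fold, Erg28, which tethers sterol enzymes, 3.54-fold, and Aldoc, an aldolase, 3.15-fold. In TgSREBP-1a Pradc1 read 4.53 and 4.57, at the wild type level, whereas Pdzk1ip1 read 10.56 and 10.63 and Nfe2 7.64 and 7.36, both high there as well.

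Beside G0s2, Hsd3b5 and Gstp1, the 20 largest decreases included Serpina12, which encodes the secreted protein vaspin. It read 7.34 and 7.31 in wild type and 5.90 and 5.84 in TgSREBP-2, or 2.74-fold lower. Hsd17b2, which inactivates sex steroids, fell 1.92-fold, the aspartic protease Ctse 1.81-fold, the repressor Bcl6 1.69-fold, the keratin Krt13 1.76-fold (-0.52 and -0.5, not called, with 32 added to the linear signal) and Retreg1, a receptor for autophagy of the endoplasmic reticulum, 2.1-fold. A second bright probe set of Ctse gave -0.95. AI506816 fell 2.15-fold, but its dimmer probe set read 0. Tars, a threonyl-tRNA synthetase, fell 1.6-fold and lost its call without array 1 of wild type (-0.51), array 1 (-0.78, adjusted p = 0.077) or array 2 (-0.58) of TgSREBP-2.

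The Scap knockout has its own controls, and shows how the same genes stood when the processing of all SREBPs was lost. Of 8251 genes 0.921% were called lower there and 0.739% higher. Of the 180 genes higher in TgSREBP-2, 39 were called lower in the knockout, which is 21.7% of the 180 and 51.3% of the 76 lower genes. Among the 63 that rose at least 2-fold it was 25, or 39.7%. The count of 39 ranged from 31, without array 2 of the chow-fed wild type, to 45, without array 2 of TgSREBP-2, when each array was left out. In the opposite sense, 5 of the 180 were among the 61 genes called higher in the knockout, and 3 were on omission of any 1 array of the Scap set. The 61 became 39 without array 2 of the knockout and 40 without array 1 of its wild type.

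Cholesterol genes made up 13 of these 39. The log2 difference between the knockout and its wild type was -2.57 for Idi1, -2.5 for Fdps, -2.35 for Msmo1, -2.22 for Nsdhl and -2.15 for Hmgcs1. Hsd17b7 (-0.72) is among the 13 but lost its call on omission of any 1 of the 4 arrays of the Scap set (adjusted p = 0.0647 to 0.177). In the 5 other measured genes, Mvk, Ggps1, Lbr, Ebp and Sc5d, the differences were -0.4, 0.02, -0.33, -0.57 and -1.43, and none was called. Of the fatty acid genes raised in TgSREBP-2 Fads1 (-1.71), Fasn (-1.61), Acly (-1.33), Slc25a1 (-0.86) and Elovl6 (-0.66) were called lower in the knockout. Slc25a1 was lost without array 2 of the wild type of the Scap set (adjusted p = 0.0514). Elovl6 was lost without array 1 (-0.62) or array 2 (-0.7) of the knockout or array 2 of its wild type (-0.55). Scd2, 15.8-fold higher in TgSREBP-2 by its brighter probe set, differed by -0.2 in the knockout. Scd1, 1.49-fold higher in TgSREBP-2, differed by -2.26 there.

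**Figure D4:**
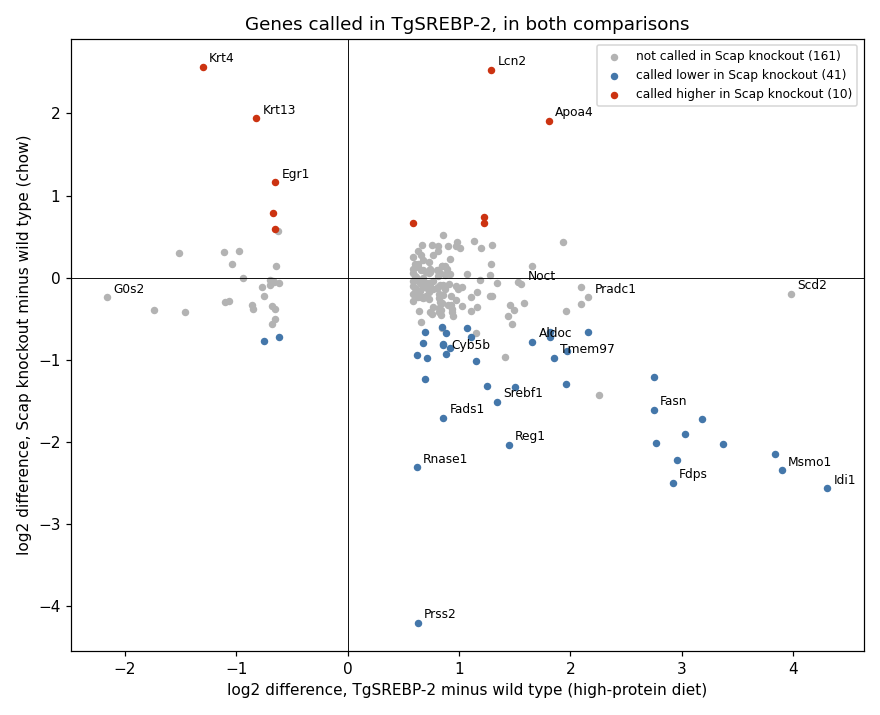
Log2 difference in Scap knockout (chow, against its own wild type) plotted against that in TgSREBP-2 (high-protein diet) for the 212 genes called in TgSREBP-2, with colours for the call in Scap knockout. Of these genes 41 were called lower in the knockout, 39 of them at right, and 10 higher, among them Krt4 at 2.57 and Lcn2 at 2.53.

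Outside cholesterol synthesis 26 genes were higher in TgSREBP-2 and lower in the knockout. Besides the lipid genes above and Srebf1 (-1.51 in the knockout), Me1 (-1.3), Lpcat3 (-0.82), Pcyt2 (-0.8) and Gpam (-0.67), they included genes outside the lipid synthesis lists. Their log2 differences in the knockout were -0.98 for Tmem97, -0.93 for Cyb5b, a cytochrome of the outer mitochondrial membrane, -0.78 for Aldoc, -0.73 for the trefoil peptide Tff3, -1.02 for the transcriptional regulator Hes6 and -0.94 for Psmb9. In TgSREBP-2 Hes6 read 8.71 and 8.33 against 7.43 and 7.30 in wild type, Tff3 10.23 and 10.09 against 9.05 and 9.07, and Cyb5b 9.73 and 9.50 against 8.74 on both arrays. Acsl5 (-0.81), Psmb8 (-0.62), Erg28 (-0.66), Bhlhe40 (-0.66) and H2-Q4 (-0.6) belong to the 26 but depended on an array of the Scap set. Acsl5 and Psmb8 were lost on omission of any 1 of the 4, Erg28 without array 2 of the knockout (-0.63) or of its wild type (-0.6), and Bhlhe40 (-0.63) and H2-Q4 (-0.54) without array 2 of that wild type. The pancreatic genes Prss2 (-4.21), Rnase1 (-2.31), Reg1 (-2.04), Klk1 (-1.24) and Sycn (-0.98) also fall in this group. The summed log2 level of their marker list was 11.22 and 11.12 in the knockout and 13.12 and 13.15 in its wild type. That of the 21 interferon-stimulated genes was 12.49 and 12.54 in the knockout and 12.83 and 12.85 in its wild type. In the wild type pool on the high-protein diet it was 11.83 and 11.74. Both Scap groups had the injections of polyinosinic-polycytidylic acid. The part of these injections in the values of Psmb8, Psmb9 and H2-Q4 was not tested.

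The 5 genes higher in both were Lcn2 (2.53 in the knockout), Apoa4 (1.91), Ugdh (0.74), Mgst3 (0.67) and Snhg6 (0.66). In the mean of its probe sets Snhg6 was called in neither. Mgst3 was lost in the knockout without array 2 of the knockout (0.58) or array 1 of its wild type (0.62). Of the 32 lower genes 5 were called higher in the knockout: Krt4 (2.57), Krt13 (1.94), Egr1 (1.16), Wdr92 (0.79) and Car14 (0.59). Car14 was lost there without array 2 of the knockout (0.53) or array 1 (0.55) or array 2 (0.63) of its wild type, and in TgSREBP-2 without array 2 of TgSREBP-2 (-0.55). Wdr92 read 12.39 and 12.25 in wild type and 11.71 and 11.58 in TgSREBP-2. Egr1 lost its call in TgSREBP-2 without array 1 of wild type (-0.5) or array 2 of TgSREBP-2 (-0.56). Bcl6 (-0.77) and Socs2 (-0.73) were called lower in both. In the knockout Socs2 was lost without array 2 of the knockout (-0.62) or array 1 (-0.74, adjusted p = 0.0986) or array 2 (-0.71) of its wild type. In TgSREBP-2 it depended on single arrays as given above.

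A direct contrast set the transgenic pools against each other, and it shares the TgSREBP-2 arrays with the comparison above. Of the 180 higher genes 47 were also higher in TgSREBP-2 than in TgSREBP-1a, 23 were lower and 110 were not called between them. The count of 47 ranged from 32, without array 1 of TgSREBP-2, to 69, without array 2. The count of 23 ranged from 17, without array 2 of wild type, to 32, without array 2 of TgSREBP-1a. Of the 32 lower genes 6 were higher than in TgSREBP-1a, 10 lower and 16 not called. The count of 6 was 4 without array 1 of wild type or array 2 of TgSREBP-2. Pradc1 (2.32), Noct (2.39) and Saa2 (2.56) were far higher in TgSREBP-2, while Elovl6 (-1.66), Gpam and Me1 (-1.6 each), Ehhadh and Pgd (-1.34 each), Fads1 (-1.24) and Cstb, a cathepsin inhibitor (-1.18), were lower. Ces3a, a carboxylesterase, fell 1.59-fold in TgSREBP-2 and read 2.85 higher there than in TgSREBP-1a. It lost its call against wild type without array 1 of wild type (-0.61) or array 2 of TgSREBP-2 (-0.59).

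A set of 14 genes was called in opposite directions in the transgenic pools against the wild type pool they share. In TgSREBP-1a, 4.78% of all genes passed as higher and 2.59% as lower. Noct, a clock-linked phosphatase, read 6.90 and 6.79 in wild type, 8.47 and 8.34 in TgSREBP-2 and 5.98 and 6.05 in TgSREBP-1a. Its other probe sets read -0.18 and 0.3 for TgSREBP-2 against wild type, and its call was lost in the mean of its probe sets. Saa2 read 11.96 and 11.81, then 13.05 and 13.10, then 10.50 and 10.54 in the same order. Hamp went the other way, with 10.11 and 10.13 in wild type, 9.04 and 9.0 in TgSREBP-2 and 10.93 and 11.12 in TgSREBP-1a. On all 3 the arrays of the pools did not overlap, which held between TgSREBP-2 and wild type for all 212 called genes. Igtp, the flippase Atp11a, Prss2, Reg1, Rnase1, Sycn and Klk1 were likewise higher in TgSREBP-2 and lower in TgSREBP-1a. Acot1, Cyp4a10, Cyp2c39 and Retreg1 were lower in TgSREBP-2 and higher in TgSREBP-1a. The calls of Rnase1, Klk1, Cyp4a10 and Cyp2c39 in TgSREBP-2 depended on single arrays as given above. That of Retreg1 in TgSREBP-1a (0.59) did so without its array 1 (0.42) or array 2 of wild type (0.5).

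**Figure D5:**
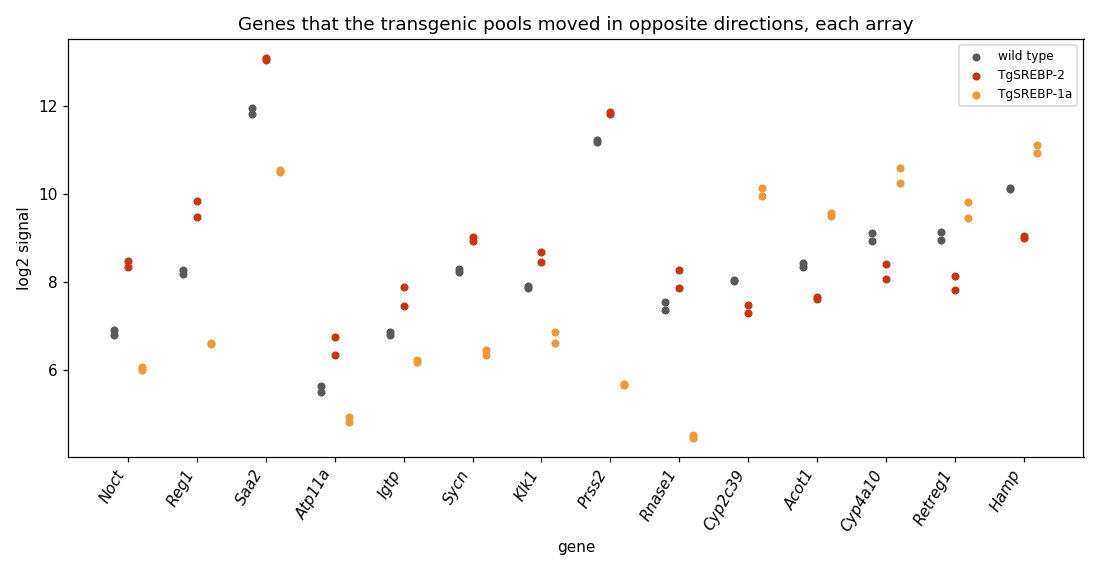
Log2 signal on each array of the wild type, TgSREBP-2 and TgSREBP-1a pools for the 14 genes called in opposite directions in the transgenic pools. In the first 9 genes TgSREBP-2 (red) lies above wild type (grey) and TgSREBP-1a (orange) below, and in the last 5 the order is turned.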

How the data were processed

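The members of every list, the lists and the tests were chosen with earlier results of these data known. The authors deposited 1 table of log2 signals for 12488 probe sets of Affymetrix MG_U74Av2 arrays, made with RMA per the submitters' processing notes, of a version that is not given, whereas the series' design text names Microarray Suite 5.0. Per the labels' protocols equal amounts of RNA of 5 mice made up a pool of 20 µg, of which duplicate arrays were run. Nothing was normalized again. Symbols of the platform annotation were brought up to date with RefSeq gene IDs (10817 of 10833 single-gene probe sets matched), and 66 controls, 396 probe sets with several symbols and 1193 with none were left out of the gene table. Each of 8251 genes kept its brightest probe set over the 10 arrays, and 2073 had a choice.

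The fit with limma 3.58.1 (lmFit, eBayes; R 4.3.3) took all 10 arrays with 1 coefficient per group, with Benjamini-Hochberg adjustment over all genes. The fit had 5 residual and 5.1 prior degrees of freedom, and was tested on simulated data. The number of arrays limits the precision. Named genes were the 20 largest called increases and decreases, called members of 44 lists (or the 2 farthest from 0), all cholesterol and fatty acid genes, the 15 largest called differences each way from TgSREBP-1a, and genes called oppositely in Scap knockout. Others named were chosen after their values were seen. Lists were described by counts and medians, with no set test. Promoter windows were matched by symbol for 6576 genes, 1308 of which have several windows and took the first.

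What the replicate numbers, shared between groups, stand for is not stated in the labels. Deviations of same-numbered arrays from their group means correlated at 0.61, 0.46 and 0.6 for the 3 pairs of pools on the high-protein diet, where the numbers were taken to pair arrays, at 0.3 within the Scap set and at -0.12 to -0.48 between the sets. Alternatives were a replicate block, fewer arrays, quantile normalization, filters on dim genes, other choices of probe set and leaving out each array.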

Additional observations from a re-analysis of the deposited data

Results flagged for a closer look

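The 14 genes below differed from wild type in one direction in TgSREBP-2 and in the other in TgSREBP-1a, and the difference between the transgenic pools was tested directly in the limma fit. The log2 difference of TgSREBP-2 minus TgSREBP-1a was 2.39 for Noct, 3.06 for Reg1, 2.56 for Saa2, 1.67 for Atp11a, 1.46 for Igtp, 2.58 for Sycn, 1.84 for Klk1, 6.19 for Prss2 and 3.59 for Rnase1. It was -2.67 for Cyp2c39, -1.9 for Acot1, -2.19 for Cyp4a10, -1.66 for Retreg1 and -2.01 for Hamp. Of these Reg1, Prss2, Rnase1, Sycn and Klk1 are secreted by the exocrine pancreas. Cyp2c39, Saa2 and Cyp4a10 have close copies in the genome.

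Among 1589 probe sets that name several genes or none and so stood outside the gene table, 25 were called higher in TgSREBP-2 and 7 lower. Over all genes tested 2.18% were called higher and 0.388% lower. Of the 66 control probe sets 0 were called, and 9 had an unadjusted p under 0.05 (limma). The largest increase was that of probe set 104285_at, which read 5.78 and 5.92 in wild type and 9.89 and 9.85 in TgSREBP-2 (4.02 ± 0.1), followed by 102847_s_at at 2.9 ± 0.12. The largest decreases were those of 160799_at (-2.86 ± 0.15) and 103562_f_at (-1.87 ± 0.08). They have no single name in the annotation used.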

How the results depend on the processing

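Of 1748 values of the 160 named genes under the alternatives, 1582 stayed on their side of the threshold, 155 lost a call and 9 gained one. The 2 that changed sign, Acss1 (-0.01 without wild type array 2, 0.22 without array 1) and Elovl1 (-0.05 without TgSREBP-2 array 2, 0.1 without array 1), had no call, and the cause was not tested. In the 11 settings 94 of the 180 higher and 14 of the 32 lower genes kept their call, and 0 was called the other way. Of the 94, Lbr, Pradc1 and Atp11a were too dim to be tested without the dimmest 25% of genes. Leaving out in turn each array of the groups compared gave 110 to 234 higher and 21 to 48 lower genes against wild type. In the contrast with TgSREBP-1a it gave 194 to 315 higher and 161 to 254 lower, and in the Scap knockout 39 to 50 higher and 59 to 69 lower. Adding 32 to the linear signal left 21 lower genes in TgSREBP-2 and 39 higher in the Scap knockout. With the replicate number as a block (the pairing described above) 196 genes were higher and 33 lower, and it removed 0 of the 212 calls. With the 6 arrays of the high-protein diet alone 142 and 25 were called, and with the 4 compared 160 and 30. Quantile normalization gave 169 higher and 39 lower. Each pool has 2 arrays and no replicate pool, so differences between mice cannot be told apart from the transgene. Dim probe sets limit what can be seen: 10 called genes lie in the dimmest 25% of genes.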

Other observations

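The genes described here were chosen after their values were seen. Some called increases outside the lists were larger in TgSREBP-2 than in TgSREBP-1a by direct contrast. Ndrg1, a stress-responsive gene, read 7.45 and 7.37 in wild type, 8.86 and 8.54 in TgSREBP-2 and 7.45 and 7.20 in TgSREBP-1a. Tmx2, a thioredoxin-like protein of the endoplasmic reticulum, read 6.31 and 6.40, then 7.85 and 7.54, then 6.53 and 6.41 in the same order. Serpina6, the corticosteroid carrier of plasma, read 9.83 and 9.87, then 10.66 on both arrays, then 9.67 and 9.68. In each of the 3 genes TgSREBP-1a stood at or near the wild type level while TgSREBP-2 stood above it. Their differences between TgSREBP-2 and wild type were 1.29 ± 0.12, 1.34 ± 0.12 and 0.81 ± 0.07.

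The water channel Aqp8 rose in both transgenic pools. It read 7.37 and 7.18 in wild type, 8.86 and 8.85 in TgSREBP-2 and 9.07 and 8.95 in TgSREBP-1a. Nampt, which makes NAD, rose by 1.16 ± 0.12 in TgSREBP-2, and the lysosomal genes Asah1, Gusb and Ctsd by 0.97, 0.88 and 0.62. Ctsd lost its call without array 1 of TgSREBP-2, where it differed by 0.57, and after quantile normalization. Rdh11, a retinol dehydrogenase, rose by 1.11 ± 0.14 and differed by -0.41 in the Scap knockout, where it was not called. Gpx4, which reduces lipid peroxides, rose by 1.03 ± 0.15.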
